A study of Mus musculus with 6 samples.

Results

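The lysosome genes of mouse splenic CD8 T cells were taken as the genes whose pathway annotation in the authors' deposited table holds the KEGG lysosome pathway. The rule found 126 of the 17744 genes in that table. Of these, 114 reached at least 1 FPKM (fragments mapped to a gene, scaled to its length and to library depth) in at least 3 libraries and were tested among 10655 genes in all. The RNA came from spleen cells that had been sorted on CD45, CD3 and CD8a, the gate for CD8 T cells. The 3 control libraries are labelled wild type with control treatment. The 3 ultrasound libraries carry fus irradiation in both the treatment and the genotype label, and the series title names focused ultrasound of the spleen. Strain, age, dose, interval after treatment and tumour status are not given in the sources used here, nor whether each library is a separate animal, so p-values measure only the spread between these libraries.

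Lysosomes are acidic compartments in which proteins, glycans, lipids and nucleic acids are broken down. A V-type ATPase pumps protons into them, membrane glycoproteins such as LAMP1 line their inner face, and soluble hydrolases reach them from the Golgi on mannose 6-phosphate receptors and adaptor complexes. In cytotoxic T cells the granules that hold perforin and granzymes are lysosome-related organelles, whereas macrophages, dendritic cells and neutrophils hold abundant lysosomes for digesting what they engulf.

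Each library held between 35024080 and 38113103 reads. Among 11 CD8 T cell markers, the summed level lay between 3182 and 3358 FPKM in controls and between 2792 and 3606 FPKM in ultrasound libraries, so the labelled cell type was present throughout. Markers of other cells were present too. The summed level of 13 macrophage and monocyte markers was 376, 222 and 186 FPKM in control 1, 2 and 3 and 578, 552 and 750 FPKM in ultrasound 1, 2 and 3. The sum of 11 neutrophil markers was 579, 189 and 194 FPKM in controls and 2329, 654 and 688 FPKM in ultrasound libraries. No marker of these lists was at 0 reads in any library, and none is a lysosome pathway member. In bulk samples, fewer cells of a type and less RNA per cell cannot be told apart. Ultrasound 2 and 3 resembled each other more than either resembled ultrasound 1: a chi-square per degree of freedom over genes was 22.6 between them, against 135 and 148 to ultrasound 1. Ultrasound 1 was nearer to control 1, 2 and 3, at 56.1, 82.1 and 105.

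Of 52 tested digestive enzymes and their activators, 21 rose, or 40.4%, and 1 fell in ultrasound libraries. Another 3 proton pump members and 3 membrane glycoproteins rose. Of 29 members of the sorting machinery, 26 did not pass the test and 10.3% were called higher. Of all 114 members tested with limma at an adjusted p of 0.05 over all genes, 31 rose, or 27.2%. The background was 6.55% of all genes tested, and the share of the sorting machinery was near it. A single member, Gla, fell, against a background of 1.56% of genes. The median log2 change was 0.33 over the members and 0.09 over all genes tested, and 94 members had a positive change. All 3 ultrasound libraries lay above all 3 controls for 58 members, against a background of 25.9%, and below them for 4, against a background of 8.96%. In the authors' deposited table, 41 of the members tested were higher at q under 0.05, against a background of 8.64%, and 4 were lower, against 7.73%: Ap1s3, Cd164, Gla and Slc11a2.

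The number of calls rested on scaling and on single libraries. With median-of-ratios size factors, which set the typical gene to no change, 9 members were called higher, against a background of 2.75%, and 0 lower, against 1.35%, with 51 higher and 7 lower at an unadjusted p under 0.05. The calls over all genes were then 293 higher and 144 lower in place of 698 and 166. Those 9 were Acp2, Atp6v0a1, Atp6v0d1, Cd68, Dnase2a, Hexa, Hgsnat, Slc11a1 and Sort1, and the median over all genes moved from 0.09 to -0.0061. Without ultrasound 1, 69 members were called higher, against a background of 34.1%, and 12 lower, or 10.5%, below the background of 19.7%. Without control 1, 24 were called higher, against a background of 4.71%, and 19 of them were shared with the 31. In that fit 0 were called lower, against 0.61%, with 1 lower at an unadjusted p under 0.05. Without control 2, control 3, ultrasound 2 or ultrasound 3, limma called 0 members in either direction, and 49, 50, 54 and 52 were higher and 1, 2, 3 and 1 lower at an unadjusted p under 0.05. With ultrasound 1 alone set against the controls, 2 members were called higher, Atp6v0a1 and Ctsl, against a background of 0.967%, and Gla was called lower, against 0.441%.

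**Figure D1:**
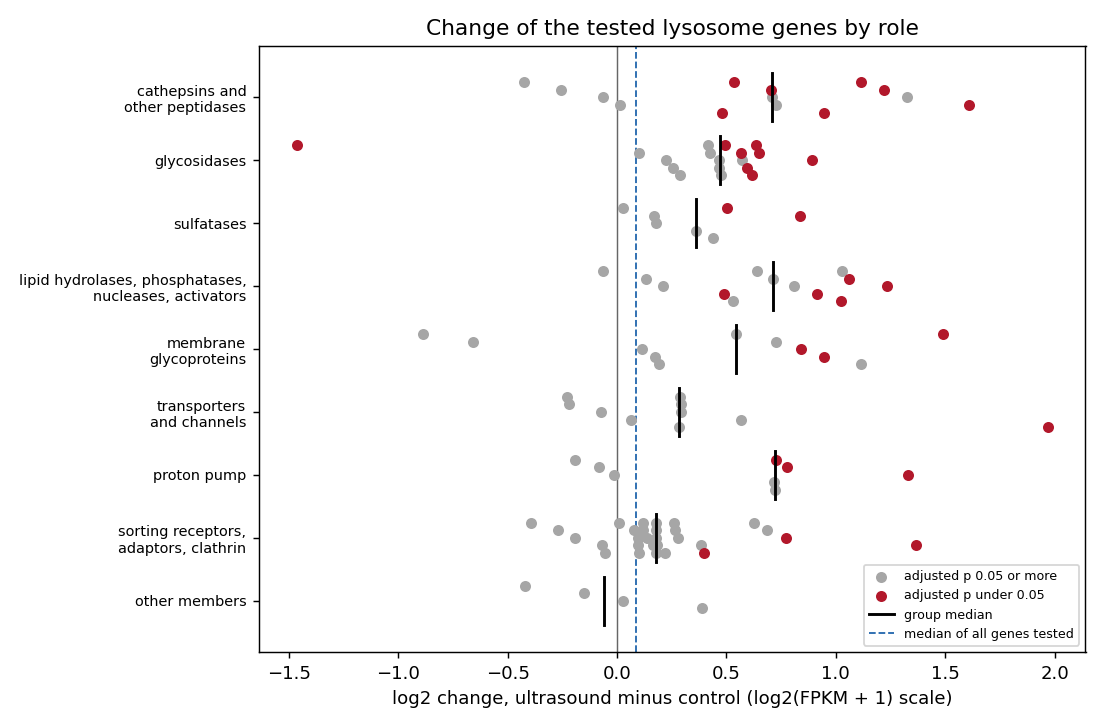
Log2 change of each tested lysosome gene, ultrasound minus control on the log2(FPKM + 1) scale, by role; red points passed limma's adjusted p of 0.05, black bars are group medians and the dashed line is the median of all genes tested. The peptidase, lipid hydrolase and proton pump groups have medians of 0.71, 0.71 and 0.72, while the sorting group lies at 0.18.

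Many lysosome promoters carry a palindromic E-box that binds transcription factors of the TFEB and TFE3 family, often called the CLEAR element. RefSeq promoter windows of GRCm38.p6, each 300 bases long and spanning the annotated start, were matched by gene identifier for 98 of the 126 members, with 117 windows. The letters TCACGTGA, which read the same on both strands, stood in 11 of the 117 windows, or 9.4%, against 0.974% of all 32851 windows and 2.05% of those of genes tested. They contain the shorter palindrome CACGTG, found in 21.4% of members' windows, 10.3% of those of genes tested and 7.15% of all windows.  TCACGTGA stood in 10.7% of 28 windows of members called higher and in 10.3% of 78 windows of other tested members. These shares are descriptions, and a match is not evidence of binding. The windows below show the letters in capitals in 2 members that rose, Ctsa and Ctsd, in Gla, which fell, and in Cd164, which did not pass the test and was chosen after its values were seen.
Ctsa (chr2:164833523-164833822, plus strand): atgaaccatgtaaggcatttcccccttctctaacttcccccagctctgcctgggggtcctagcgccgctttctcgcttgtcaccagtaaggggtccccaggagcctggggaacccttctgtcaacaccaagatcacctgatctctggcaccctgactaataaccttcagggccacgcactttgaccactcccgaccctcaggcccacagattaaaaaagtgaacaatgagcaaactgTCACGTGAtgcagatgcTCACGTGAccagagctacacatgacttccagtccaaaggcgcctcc
Ctsd (chr7:142387778-142388077, minus strand): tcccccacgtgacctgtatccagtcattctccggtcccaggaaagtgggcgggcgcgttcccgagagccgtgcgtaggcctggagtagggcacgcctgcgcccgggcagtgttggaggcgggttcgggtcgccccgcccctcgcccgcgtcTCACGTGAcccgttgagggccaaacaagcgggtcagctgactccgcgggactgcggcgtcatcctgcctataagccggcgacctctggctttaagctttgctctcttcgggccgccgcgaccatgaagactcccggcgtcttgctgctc
Gla (chrX:134600956-134601255, minus strand): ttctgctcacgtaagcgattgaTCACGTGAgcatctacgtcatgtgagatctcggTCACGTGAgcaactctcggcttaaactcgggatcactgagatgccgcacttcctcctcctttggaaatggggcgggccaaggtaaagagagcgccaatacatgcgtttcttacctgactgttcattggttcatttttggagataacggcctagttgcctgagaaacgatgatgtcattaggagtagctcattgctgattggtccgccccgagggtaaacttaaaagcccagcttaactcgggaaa
Cd164 (chr10:41519250-41519549, plus strand): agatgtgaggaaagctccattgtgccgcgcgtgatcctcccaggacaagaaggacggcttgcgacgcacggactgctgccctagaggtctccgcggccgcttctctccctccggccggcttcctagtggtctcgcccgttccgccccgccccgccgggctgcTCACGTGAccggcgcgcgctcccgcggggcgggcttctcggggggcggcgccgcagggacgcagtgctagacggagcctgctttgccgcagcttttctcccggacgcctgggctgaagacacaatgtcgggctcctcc

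Cathepsins and other peptidases, which cut proteins in the acidic lumen, differed widely among themselves, with log2 changes from -0.43 to 1.61. Of 14 tested, 7 rose and 0 fell, or 50% called higher against 6.55% of all genes tested. A negative change was seen in 3, and the median log2 change was 0.71. Napsa (napsin A, an aspartic peptidase; NCBI Gene 16541; chromosome 7, 44572380 to 44586862) had 57.0, 26.3 and 29.7 FPKM in the controls and 73.1, 125 and 147 FPKM in ultrasound 1, 2 and 3. Each ultrasound library lay above each control, though ultrasound 1 was closest to control 1. The log2 change was 1.61 (standard error 0.35, limma adjusted p 0.0442). Lgmn, the asparaginyl endopeptidase legumain, had 42.1, 21.8 and 19.6 FPKM against 64.2, 56.1 and 67.8 FPKM, a log2 change of 1.22 (limma adjusted p 0.0450). Ctsz, a carboxypeptidase, went from 69.0 ± 23.2 to 148 ± 32.8 FPKM (SD, n = 3 each), and Ctsb, a cysteine cathepsin, from 87.4 ± 20.7 to 168 ± 31.4 FPKM, with limma adjusted p of 0.0465 and 0.0407. In these 4 genes control 1 was the highest control, as it was for 27 of the 31 members that rose. The same held for 65 of all 114 tested members.

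Ctsd, the main aspartic peptidase of lysosomes (NCBI Gene 13033; chromosome 7, 142375911 to 142388038), had the highest mean level of the group. Its levels were 259, 235 and 240 FPKM in the controls and 320, 371 and 375 FPKM in ultrasound libraries. The controls lay close together and all ultrasound libraries lay above them, a log2 change of 0.54 (standard error 0.10, limma adjusted p 0.0331). Ctsa, which also protects the enzymes that remove galactose and sialic acid, and Tpp1, a tripeptidyl peptidase, rose by log2 changes of 0.71 and 0.48 (limma adjusted p 0.0499 and 0.0469). Ctss, a cathepsin that trims the invariant chain in antigen-presenting cells, had 303, 184 and 174 FPKM in controls and 380, 300 and 373 FPKM in ultrasound libraries. Ultrasound 2 lay below control 1 and the gene did not pass (limma adjusted p 0.0968), but without control 1 it did (limma adjusted p 0.0260).

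Ctsw and Ctsl had negative changes that did not pass. Ctsw, a cathepsin found mainly in CD8 T cells and natural killer cells, had 198, 212 and 225 FPKM in controls and 153, 201 and 181 FPKM in ultrasound libraries. The groups overlapped, with a log2 change of -0.25 (limma adjusted p 0.203). Ctsl, a broad cysteine cathepsin, had 9.08, 8.03 and 8.67 FPKM in controls and 15.6, 5.27 and 6.40 FPKM in ultrasound 1, 2 and 3. Ultrasound 1 was above every control and the other two below every control. The log2 change was -0.06 with all libraries and 0.80 for ultrasound 1 alone, a single library. Without ultrasound 1 it was -0.49 (limma adjusted p 0.00621). Ctsw was chosen after its values were seen, as were Ctsa, Tpp1, Hgsnat, Naglu and Lipa.

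**Figure D2:**
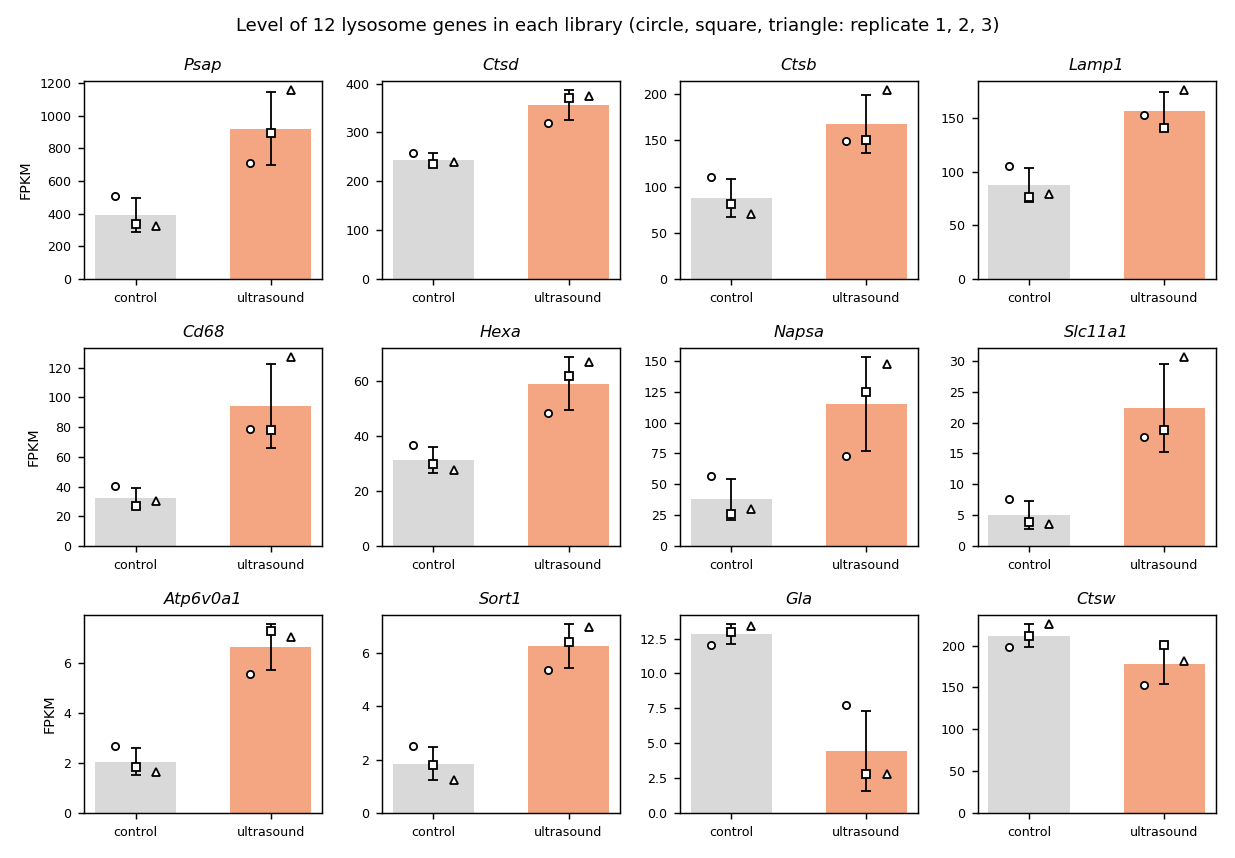
FPKM of 12 lysosome genes in each library; bars are group means, error bars the SD over 3 libraries, and circle, square and triangle are replicates 1, 2 and 3 of each group. Psap, Ctsd, Cd68 and the other members that rose have all ultrasound libraries above all controls, Gla has them all below, and Ctsw overlaps between groups.

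Glycosidases remove sugars from glycoproteins, glycolipids and glycosaminoglycans. Of 18 tested members of this group, 7 rose and 1 fell, 17 had a positive change, and 13 lay above every control in all ultrasound libraries. That is 38.9% called higher and 72.2% above every control, against 6.55% and 25.9% of all genes tested. Over all genes tested, 1.56% were called lower and 6569 of 10655 had a positive change. Hexa, the alpha subunit of the beta-hexosaminidase that degrades GM2 ganglioside (NCBI Gene 15211; chromosome 9, 59539540 to 59565109), had 36.6, 29.7 and 27.7 FPKM in controls and 48.5, 61.9 and 67.0 FPKM in ultrasound libraries. No library of one group reached the other, and the log2 change was 0.89 (standard error 0.16, limma adjusted p 0.0311). Man2b1, the alpha-mannosidase, Gusb, the beta-glucuronidase, and Fuca1, the alpha-fucosidase, rose by log2 changes of 0.65, 0.64 and 0.62. Hgsnat, an acetyltransferase, and Naglu, both of heparan sulfate breakdown, were also among those that rose.

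Gla, the alpha-galactosidase A whose loss causes Fabry disease (NCBI Gene 11605; chromosome X, 134588149 to 134601125), went the other way. It had 12.02, 12.98 and 13.4 FPKM in controls, 7.72 FPKM in ultrasound 1 and 2.80 and 2.78 FPKM in ultrasound 2 and 3. All ultrasound libraries lay below all controls, and ultrasound 2 and 3 lay well below ultrasound 1. The log2 change was -1.46 (standard error 0.32, limma adjusted p 0.0437). For ultrasound 1 alone, a single library, the log2 change was -0.66. Gla was called lower without ultrasound 1, but not with median-of-ratios size factors applied to FPKM (limma adjusted p 0.0516), without a filter or with the replicate block. Nor was it called without any single one of the other 5 libraries, over which its limma adjusted p ran from 0.0952 to 0.179. The authors' deposited table gives it a log2 fold change of -1.65 and q of 0.00131. Its promoter window holds TCACGTGA in 2 places.

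Sulfatases strip sulfate from glycosaminoglycans and sulfolipids. Of 7 tested members of the group, which includes the sulfatase-activating enzyme Sumf1, 2 rose, all 7 had a positive change, and the median log2 change was 0.36. The share called higher was 28.6%, against 6.55% of all genes tested. Arsa, the arylsulfatase that degrades sulfatide, went from 5.87 ± 0.25 to 8.76 ± 0.82 FPKM (n = 3 libraries a group, errors as SD), a log2 change of 0.50 (limma adjusted p 0.0377). Arsb, which acts on dermatan sulfate, was at 13.8 ± 1.37 and 16.0 ± 3.98 FPKM, and ultrasound 1 was below every control (log2 change 0.17, limma adjusted p 0.532).

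Lipid hydrolases, phosphatases, nucleases and activator proteins held the most abundant member. Of 13 tested, 5 rose and 0 fell, 12 had a positive change and 10 lay above every control in all ultrasound libraries. That is 38.5% called higher and 76.9% above every control, against 6.55% and 25.9% of all genes tested. Psap, the precursor of the saposins that present sphingolipids to their hydrolases (NCBI Gene 19156; chromosome 10, 60277627 to 60302597), had 511, 337 and 327 FPKM in controls and 712, 897 and 1155 FPKM in ultrasound libraries. It had the highest mean level of all members, and no ultrasound library reached down to a control. The log2 change was 1.24 (standard error 0.23, limma adjusted p 0.0334). Dnase2a, which digests engulfed DNA, went from 5.58 ± 1.46 to 12.6 ± 1.29 FPKM, Pla2g15, a lysosomal phospholipase, from 5.45 ± 1.64 to 12.01 ± 2.47 FPKM, and Acp2, an acid phosphatase, from 5.48 ± 1.31 to 11.1 ± 0.41 FPKM (SD, n = 3 each). Their limma adjusted p were 0.0304, 0.0418 and 0.0306. Lipa, which hydrolyses cholesteryl esters, rose by a log2 change of 0.49 (limma adjusted p 0.0381). Npc2, the soluble cholesterol carrier, stayed within a narrow range of 125, 132 and 135 FPKM in controls and 123, 121 and 132 FPKM in ultrasound libraries, with overlapping groups and a log2 change of -0.06 (limma adjusted p 0.617).

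Membrane glycoproteins divided by gene. Of 11 tested, 3 rose and 0 fell, or 27.3% called higher against 6.55% of all genes tested. Cd68, a heavily glycosylated protein of macrophage endosomes and lysosomes (NCBI Gene 12514; chromosome 11, 69664213 to 69666153), had 40.1, 27.0 and 30.5 FPKM in controls and 78.4, 77.9 and 127 FPKM in ultrasound libraries. The lowest ultrasound library was far above the highest control, with a log2 change of 1.49 (standard error 0.23, limma adjusted p 0.0304). Lamp1, a main glycoprotein of the lysosomal membrane that also reaches the T cell surface during degranulation (NCBI Gene 16783; chromosome 8, 13159161 to 13175338), had 106, 76.8 and 79.7 FPKM against 152.5, 141 and 176 FPKM. Again the groups did not overlap, and the log2 change was 0.84 (standard error 0.15, limma adjusted p 0.0312). Litaf, an endosomal membrane protein, rose by a log2 change of 0.95 (limma adjusted p 0.0435).

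Lamp2, the close relative of Lamp1 that takes part in chaperone-mediated autophagy, had 8.42, 5.17 and 5.36 FPKM in controls and 16.9, 8.08 and 9.37 FPKM in ultrasound libraries. Ultrasound 1 was the highest and ultrasound 2 lay below control 1, so the groups overlapped (limma adjusted p 0.142). Laptm5, a lymphocyte membrane protein that promotes T cell receptor degradation, was the most abundant gene of the group at 599, 581 and 595 FPKM in controls and 545, 741 and 766 FPKM in ultrasound libraries. Ultrasound 1 was below every control, and the other ultrasound libraries were above every control (limma adjusted p 0.367). Cd164, a sialomucin, had 157, 155 and 138 FPKM in controls and 133, 64.8 and 60.1 FPKM in ultrasound libraries. All ultrasound libraries lay below all controls, yet ultrasound 1 was close to control 3 and the gene did not pass (limma adjusted p 0.102). Entpd4b has a near-identical copy, Entpd4, and its values are uncertain where reads could be split between them.

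Transporters and channels moved less. Of 10 tested, 1 rose and 0 fell, or 10% called higher, near the 6.55% of all genes tested. The median log2 change was 0.28. Slc11a1, a metal transporter of phagocyte lysosomes also known as NRAMP1 (NCBI Gene 18173; chromosome 1, 74375195 to 74386062), had 7.58, 3.90 and 3.63 FPKM in controls and 17.7, 18.8 and 30.6 FPKM in ultrasound libraries. No value of one group fell in the range of the other. Its log2 change of 1.97 was the highest of all members tested (standard error 0.30, limma adjusted p 0.0304). Npc1, the membrane cholesterol exporter, had 10.6, 11.8 and 11.3 FPKM in controls and 15.2, 13.2 and 13.7 FPKM in ultrasound libraries, which did not overlap but did not pass (limma adjusted p 0.0960). Mcoln1, the calcium channel TRPML1, and Abca2, a lipid transporter, had log2 changes of 0.29 and -0.07 (limma adjusted p 0.256 and 0.65).

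The proton pump is the V-type ATPase, with a membrane part that the pathway lists and a soluble part that it mostly leaves out. Of 8 tested pump members, 3 rose and 0 fell, or 37.5% called higher against 6.55% of all genes tested. Atp6v0a1, a membrane subunit that carries the proton path (NCBI Gene 11975; chromosome 11, 101009452 to 101063719), had 2.67, 1.84 and 1.62 FPKM in controls and 5.56, 7.24 and 7.03 FPKM in ultrasound libraries. Each ultrasound library lay far above the highest control, and the log2 change was 1.33 (standard error 0.16, limma adjusted p 0.0297). Atp6v0d1, another membrane-part subunit, and Atp6ap1, an accessory subunit, rose by log2 changes of 0.78 and 0.73 (limma adjusted p 0.0311 and 0.0359). Atp6v0c, which forms the proteolipid ring, had 49.6, 43.5 and 41.7 FPKM in controls and 61.2, 32.8 and 37.7 FPKM in ultrasound libraries. Ultrasound 1 was the highest library and ultrasound 2 and 3 the lowest. So the log2 change of Atp6v0c, -0.08 (limma adjusted p 0.817), turned to 0.44 for ultrasound 1 alone, a single library. Without ultrasound 1 it was -0.34 (limma adjusted p 0.0221).

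Sorting receptors, adaptors and clathrin bring new enzymes from the Golgi to endosomes. Of 29 tested, 3 rose and 0 fell, or 10.3% called higher, near the 6.55% of all genes tested. The median log2 change was 0.18, against 0.09 over all genes tested. Sort1, or sortilin, a receptor for enzymes that lack mannose 6-phosphate (NCBI Gene 20661; chromosome 3, 108284082 to 108361511), had 2.51, 1.81 and 1.25 FPKM in controls and 5.37, 6.42 and 6.998 FPKM in ultrasound libraries. The groups did not overlap, with a log2 change of 1.37 (standard error 0.18, limma adjusted p 0.0297). Nagpa, which uncovers the mannose 6-phosphate tag, and Ap1s1, a small adaptor subunit, rose by log2 changes of 0.77 and 0.40 (limma adjusted p 0.0380 and 0.0452). M6pr, the small mannose 6-phosphate receptor, had the highest mean FPKM of the group. It had 96.97, 87.8 and 88.5 FPKM in controls and 106.5, 94.5 and 92.1 FPKM in ultrasound libraries, which overlapped (limma adjusted p 0.484). Its log2 change of 0.10 became -0.0062 with median-of-ratios size factors. Clta, a clathrin light chain, had a log2 change of 0.38 and did not pass (limma adjusted p 0.132).

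**Figure D3:**
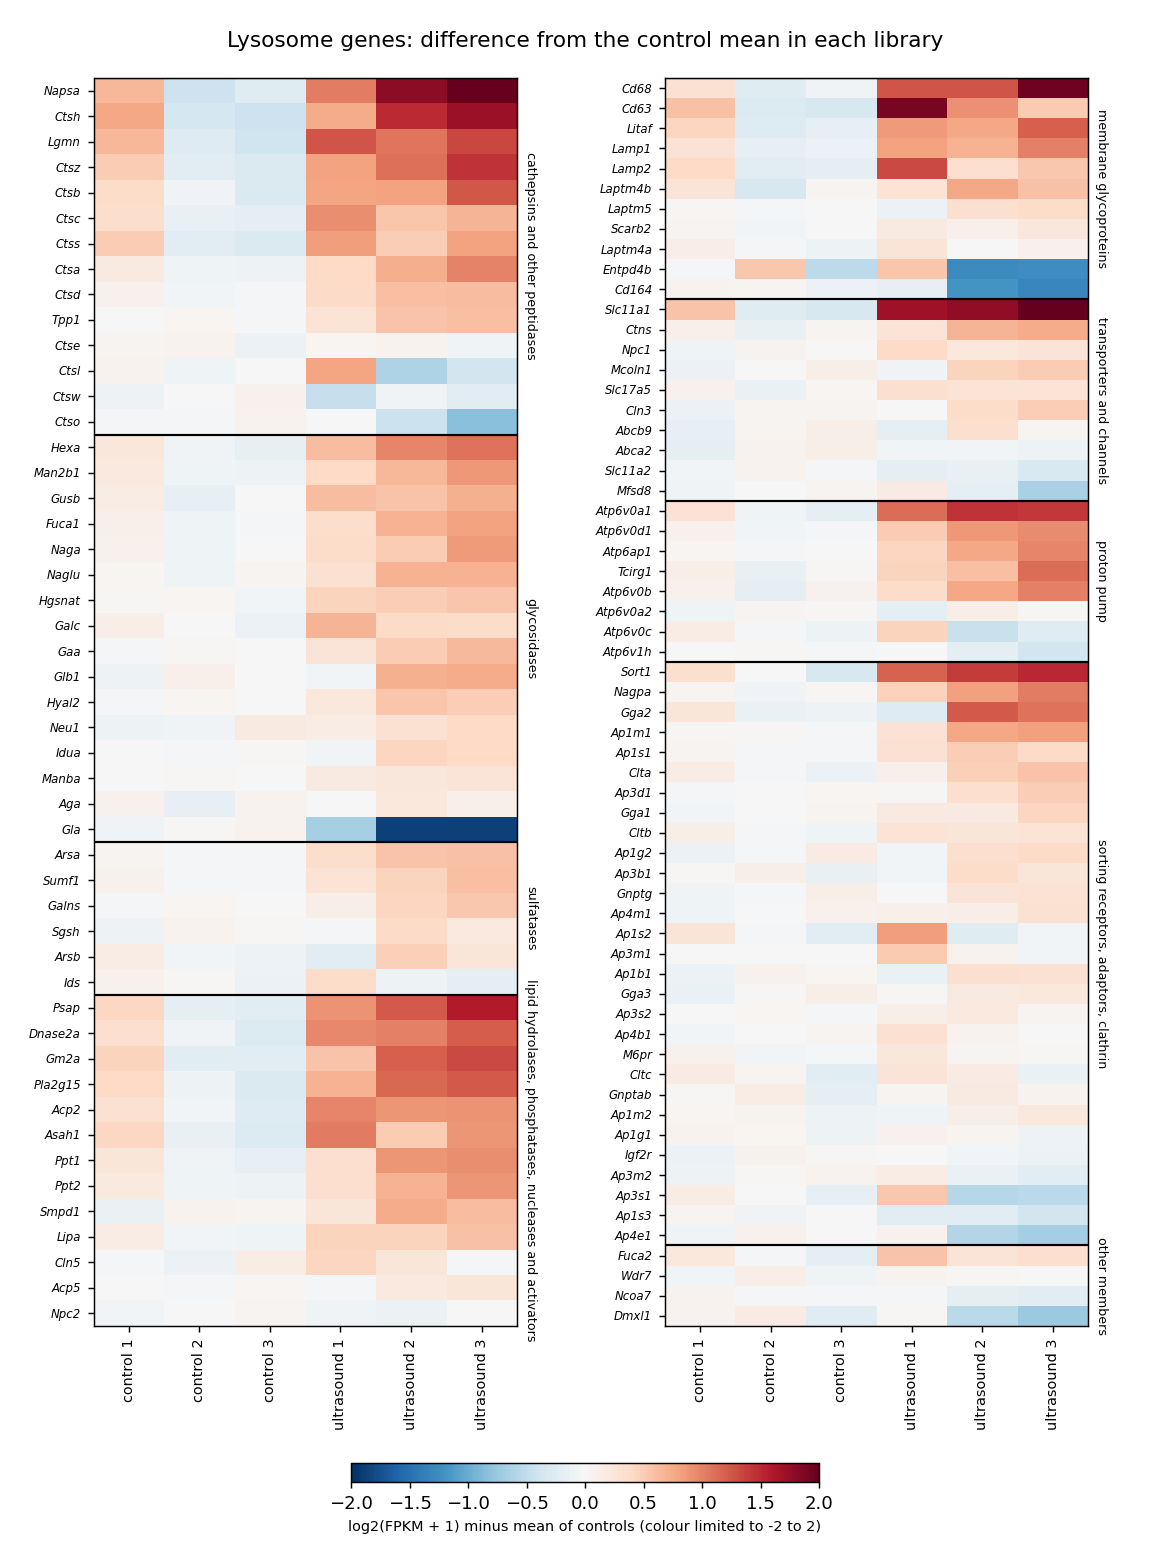
Difference of the reported lysosome genes from the mean of the controls in each library, on the log2(FPKM + 1) scale, with genes grouped by role and ordered by change; red is higher, blue lower, and colours stop at 2 in either direction. Red fills most enzyme rows in all 3 ultrasound columns, Gla and Cd164 are blue, and a few genes such as Ctsl and Ap3s1 are red in ultrasound 1 and blue in ultrasound 2 and 3.

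The remaining 4 tested members, Dmxl1, Wdr7, Ncoa7 and Fuca2, had log2 changes of -0.42, 0.03, -0.15 and 0.39, and none passed (limma adjusted p from 0.124 to 0.853). Dmxl1 and Wdr7 belong to a complex that assembles the proton pump, and Fuca2 is a fucosidase. Another 12 members stayed under the filter on low values. Among them Ctsg, a serine peptidase of neutrophil granules, stood out with 11.6 FPKM in ultrasound 1, against 0.99, 0.26 and 0.54 FPKM in controls and 0.96 and 1.63 FPKM in ultrasound 2 and 3. Ap3b2, a neuronal adaptor subunit, had 0, 1 and 0 reads in controls and 0, 52 and 5 reads in ultrasound libraries. The sources used here do not state whether reads carry molecular identifiers, so such counts may include copies of one molecule. The other 10, which include Lamp3, Ctsk, Ctsf and Atp6v0d2, were at 1.59 FPKM or less in every library.

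The ultrasound libraries differed among themselves over the members. The median difference from the control mean was 0.28 in ultrasound 1, 0.41 in ultrasound 2 and 0.46 in ultrasound 3 on the log2 scale, against 0.06, 0.13 and 0.09 over all genes tested. In all 3 ultrasound libraries, 69 of the 114 members lay above the control mean and 9 below it. Another 11 lay above it in ultrasound 1 only and 17 below it in ultrasound 1 only. These patterns were not counted over all genes, of which 6569 of 10655 tested had a positive change. The first kind had its widest spread in Entpd4b, Ctsl, Ap3s1 and Ap1s2, and the second in Gga2, an adaptor that binds sorting receptors, and Glb1, the beta-galactosidase. Gga2 had 6.86, 5.07 and 5.23 FPKM in controls, 4.59 FPKM in ultrasound 1 and 14.7 and 13.2 FPKM in ultrasound 2 and 3. Ultrasound 1 was the lowest of the ultrasound libraries in 24 of the 31 members that rose. The same held for 66 of all 114 tested members and for 5048 of all 10655 genes tested. Entpd4b, Ctsl, Ap3s1, Ap1s2, Gga2 and Glb1 are named here as the extremes of these patterns, chosen after their values were seen.

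**Figure D4:**
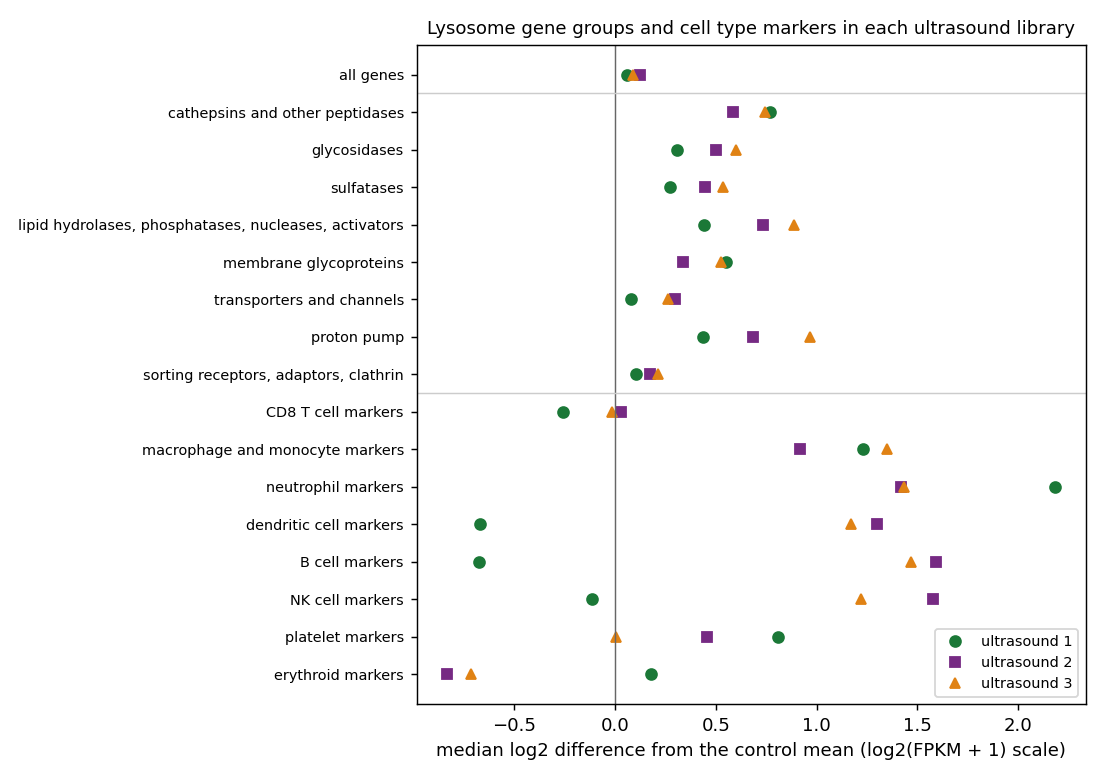
Median log2 difference from the control mean in ultrasound 1 (circles), 2 (squares) and 3 (triangles), for all genes tested, for 8 lysosome gene groups and for tested members of 8 cell type marker lists. The lysosome groups lie right of 0 in all 3 libraries, as do the macrophage, neutrophil and platelet markers. B cell, dendritic cell and NK (natural killer) cell markers lie right of 0 in ultrasound 2 and 3 only.

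Summed levels of phagocyte markers and of lysosome members were both larger in the ultrasound group. Among ultrasound libraries, ultrasound 1 had the lowest member sum, 5277 FPKM, and the highest neutrophil sum, 2329 FPKM. In that neutrophil sum S100a8 and S100a9 stood at 725 and 886 FPKM. Single markers differed in their order over ultrasound 1, 2 and 3. Csf1r had 102, 135 and 200 FPKM and Csf3r 24.8, 42.3 and 50.8 FPKM, the order of the member sum, whereas C1qa had 87.8, 60.4 and 66.2 FPKM. For macrophage and monocyte markers, ultrasound 2 had the lowest sum of the ultrasound libraries, 552 FPKM, and ultrasound 3 the highest, 750 FPKM. Of 13 macrophage and monocyte markers, all tested, 5 rose and 10 lay above every control in all ultrasound libraries, with median differences of 1.23, 0.92 and 1.35 in ultrasound 1, 2 and 3. Of 11 neutrophil markers, 4 rose and 10 lay above every control, with median differences of 2.18, 1.42 and 1.43. Over all genes tested, 6.55% rose and 25.9% lay above every control in all ultrasound libraries. B cell markers had median differences of -0.67, 1.59 and 1.47, and dendritic cell markers -0.67, 1.30 and 1.17. NK (natural killer) cell markers had -0.11, 1.58 and 1.22, the 2 tested platelet markers 0.81, 0.46 and 0.0082, and erythroid markers 0.18, -0.83 and -0.71. The summed level of all 126 lysosome members was 4572, 3913 and 3904 FPKM in controls and 5277, 5938 and 6665 FPKM in ultrasound libraries. Control 1 had the highest sum among controls for these members and for macrophage, neutrophil, B cell, dendritic cell, platelet and erythroid markers. For CD8 T cell and NK cell markers it had the lowest. The part of such cells in the change of the members was not tested.

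Membership of other KEGG pathways divided the tested members further. All 13 that also belong to glycosaminoglycan degradation had a positive change and 5 of them rose, with a median log2 change of 0.43. Of 11 in sphingolipid metabolism, 4 rose and Gla fell. Of 13 shared with the phagosome pathway 4 rose and 9 had a positive change, and of 9 shared with apoptosis 3 rose. Over all genes tested, 6.55% were called higher, 1.56% were called lower and 6569 of 10655 had a positive change. These pathways share genes with each other and are descriptions only.

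Genes that serve lysosomes but lie outside the pathway were taken from 4 lists of 64 genes, of which 61 were in the table and 52 were tested. Of these, 10 rose, or 19.2% against 6.55% of all genes, and 0 fell at limma's adjusted p of 0.05, with a median log2 change of 0.27. With median-of-ratios size factors 4 rose, against 2.75% of all genes. Without ultrasound 1, 28 were called higher, against 34.1% of all genes, and 2 lower, against 19.7%. Without control 1, 8 were called higher, against 4.71%, and without any one of the other 4 libraries 0, with 17 or 18 at an unadjusted p under 0.05. Soluble pump subunits and other pump genes gave 2 of 10, Atp6v1b2 and Atp6v0e, with log2 changes of 0.88 and 0.74. Atp6v1b2, a nucleotide-binding subunit, went from 30.8 ± 3.85 to 57.3 ± 4.17 FPKM (n = 3 libraries a group, errors as SD), with a limma adjusted p of 0.0297.

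Among 19 tested genes of lysosome biogenesis and nutrient sensing, 2 rose, or 10.5% against 6.55% of all genes tested. Tfe3, a transcription factor that binds the CLEAR element, went from 9.23 ± 0.67 to 15.01 ± 2.55 FPKM (n = 3 libraries a group, errors as SD; log2 change 0.64, limma adjusted p 0.0407), and Lamtor1, which anchors the Ragulator complex to the lysosome, had a log2 change of 0.60 (limma adjusted p 0.0312). Tfeb, named after its values were seen, was at 3.71 ± 0.10 and 7.39 ± 2.96 FPKM and did not pass (limma adjusted p 0.118). Of 17 genes of lysosome fusion and positioning, Rab7, Arl8a and Borcs6 rose by log2 changes of 0.45, 0.69 and 0.56. Rab7 is the small GTPase of late endosomes, and Arl8a moves lysosomes towards the cell edge. Of 6 tested cathepsin inhibitors and progranulin, 3 rose. Cst3, or cystatin C, a secreted cathepsin inhibitor, went from 133 ± 54.3 to 391 ± 127 FPKM (limma adjusted p 0.0440), and Grn, or progranulin, from 36.2 ± 13.2 to 91.4 ± 13.6 FPKM (limma adjusted p 0.0312; SD, n = 3 each). Serpinb1a, an inhibitor of neutrophil serine peptidases, had a log2 change of 1.48 (limma adjusted p 0.0297). Cst7, or cystatin F, an inhibitor made in cytotoxic lymphocytes and named after its values were seen, was at 73.6 ± 4.44 and 74.7 ± 8.81 FPKM (limma adjusted p 0.925).

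**Figure D5:**
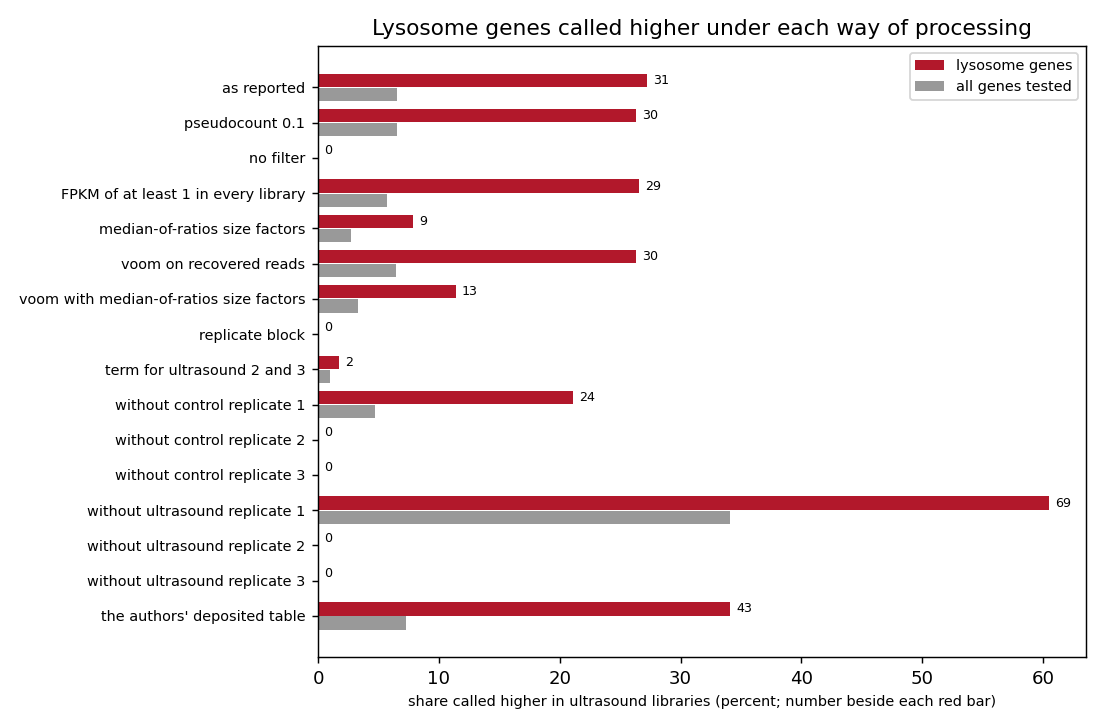
Share of tested lysosome genes (red) and of all tested genes (grey) called higher in ultrasound libraries under each way of processing, with the number of lysosome genes beside each red bar. The share of lysosome genes exceeds that of all genes wherever any gene was called, leaving aside the setting that rests on a single ultrasound library. In that setting too few lysosome genes were called to compare the shares. The number of lysosome genes called runs from 0 to 69.

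Genes on opposite strands share some exon bases with members, and the sources used here do not state whether counting used strand. In GENCODE M21 (GRCm38), the largest such shares among members that rose were 30% of the exon bases of Dnase2a with Mast1, 18.9% of Napsa with Gm15396 and 18.8% of Arsa with C230037L18Rik. Hexa, Ctsb and Acp2 shared 12.8%, 12.8% and 12.6% of theirs with Tmem202, Fdft1 and Ddb2. Reads there could be assigned to either gene. No listed gene overlapped the exons of Psap, Ctsd, Cd68, Slc11a1, Sort1, Atp6v0a1 or Gla.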

How the data were processed

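RNA-seq of CD8 T cells gated from spleen covered 3 control and 3 ultrasound samples. The authors deposited FPKM values per library. The submitters' processing notes list HISAT2, HTSeq, DESeq2, R 3.2.0 and mm10 without roles, and the annotation is not given in the sources used here. Per the file headers, the deposited signal values are group and total averages after DESeq2 normalization, and the same table has a fold change, its log2 value, a p-value and a q-value for ultrasound against control. The fold change is close to, but not equal to, the ratio of the deposited group means.

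Members are the genes annotated with the KEGG lysosome pathway. The members and lists were chosen with earlier results of these data known. Differences in log2(FPKM + 1) were tested by limma 3.58.1 under R 4.3.3, with its trend and robust options, over the 10655 genes that reached 1 FPKM in 3 or more libraries, two-sided, with Benjamini-Hochberg adjustment and a threshold of 0.05; fold changes on this scale understate the change of low genes. Whole reads were recovered from FPKM and the deposited group means, which obey one linear relation; 100% of 64001 values under 1000 reads lay within 0.05 of a whole number. They gave depths of 35024080 to 38113103 reads and served voom as an alternative. The lowest chi-square per degree of freedom between 2 libraries was 20.5, so none was treated as a repeat. Both steps were tested on simulated data. Other computation used Python 3.11.15, numpy 2.4.6, pandas 2.3.3 and matplotlib 3.10.9.

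Named genes are, per role, up to 4 called members of largest change in each direction and the 2 of highest mean FPKM, a panel of 12, every called lower member and called genes of the outside lists; any other gene given with values was picked with those values in view. The alternatives covered the pseudocount, filters, scaling, voom, a replicate block, a term for ultrasound 2 and 3, the authors' values and each library left out. Voom with median-of-ratios size factors was added after the data were seen. The filtered deposited table was not used here. A few genes are not reported here by name and are left out of the heat map, though they count in the totals.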

Additional observations from a re-analysis of the deposited data

How the results depend on the processing

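Against 31 members called higher, the count was 30 with a pseudocount of 0.1, or 26.3% against 6.53% of all genes. It was 29 with FPKM of at least 1 in every library, or 26.6% against 5.71%. Voom on recovered reads gave 30, of which 29 were shared, or 26.3% against 6.44%. Median-of-ratios size factors gave 9, or 7.89% against 2.75% of all genes, and voom with these gave 13, or 11.4% against 3.31%. The count was 0 in the unfiltered fit and under the replicate block, where 0 of all genes were called too. With a term for ultrasound 2 and 3, calls rest on ultrasound 1 alone and are not counted here. The authors' deposited table has 43 of all 126 members, or 34.1% against 7.3% of its 17744 genes, and 41 of the 114 tested here. Members called lower numbered 1, or 0.877% against 1.56% of all genes. They numbered 0 under median-of-ratios size factors, against 1.35%, and 0 in the unfiltered fit and under the replicate block. The authors' deposited table has 4 of 126, or 3.17% against 4.98%. Outside genes called numbered 10, or 19.2% against 6.55% of all genes. They fell to 4 under median-of-ratios size factors with or without voom, against 3.31% and 2.75% of all genes called higher. In the unfiltered fit and under the replicate block they numbered 0. All genes called numbered 864, then 437 under median-of-ratios size factors, 573 when voom used these, 0 unfiltered, 0 under the replicate block, 150 under the ultrasound term and 2179 in the authors' deposited table. Where limma called 0, the genes at an unadjusted p under 0.05 were 4216 without a filter and 3249 with the replicate block, and the members higher were 63 and 59.

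Leaving out one library gave from 0 to 69 members higher, from 0 to 12 lower, from 0 to 30 outside genes and from 0 to 5727 of all genes. The lowest came without control 2, control 3, ultrasound 2 or ultrasound 3 (for members lower, also without control 1), and the highest without ultrasound 1. Of 37 named genes that were called, none changed direction under the 15 alternatives, and 314 of 555 such results lost the call. Of the named genes that were not called, directions reversed with a term for ultrasound 2 and 3 for Arsb (-0.21), Atp6v0c (0.44), Ctsl (0.80), Dmxl1 (0.030), Laptm5 (-0.12) and Mcoln1 (-0.067). M6pr reversed with median-of-ratios size factors (-0.0062), with voom and such factors (-0.0063) and in the authors' deposited table (-0.023). Without one library, Atp6v0c ran from -0.34 to 0.10 and Ctsl from -0.49 to 0.21. No pairing by replicate number was found, since deviations from group means correlated at -0.041, 0.051 and 0.058 between libraries of one number. Why the settings differ was not tested. At 35024080 reads or more, only members under the filter came near a floor of 3 reads.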
